A study of Mus musculus with 4 samples.

Results

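Genes that license replication origins and drive the replication fork were followed in mouse embryonic stem (ES) cells of the line E14TG2a, edited or not at the gene of the histone acetyltransferase KAT6A. The set holds 47 named genes out of 41543 gene symbols counted, and it was defined by gene name from textbook roles. All 47 were among the 16112 genes expressed highly enough to be tested, so no member was lost to the filter on low counts. Their counts ran from 181 for Fen1 to 21747 for Mcm3 in a library. The study compared KAT6A knockout (KO) cells, made by CRISPR/Cas9 genome editing, with control cells of the same line, 2 libraries each. Both groups were kept on gelatin in medium with serum and LIF, a cytokine that holds ES cells undifferentiated. Where the edit lies, how many clones were used and whether the replicates were grown apart was not stated. All p-values thus cover just the scatter among these 4 libraries, possibly technical.

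DNA replication begins when the origin recognition complex (ORC), with CDC6 and CDT1, loads a double ring of MCM2 to MCM7 onto DNA, a step known as licensing. The kinase CDC7 with its partner DBF4, together with CDC45 and the GINS complex, then turns the loaded ring into the active helicase, and polymerases alpha, delta and epsilon copy the strands behind it. Geminin, encoded by Gmnn, binds CDT1 and blocks a second loading in the same cycle. ES cells have a short G1 phase and are known for high levels of licensing factors, and E2F transcription factors are known to switch on many of these genes at the start of S phase. Human KAT7, a relative of KAT6A that shares its scaffold proteins, is known to bind ORC1 and to take part in licensing.

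The 4 libraries held 27494041 to 37354623 counts. Kat6a itself stood at 242 CPM (counts per M counts of the library, scaled for composition) in the library labelled KO 1 and 86.4 CPM in the library labelled KO 2, against 145 and 143 CPM in the controls. It was thus above both controls in the library labelled KO 1, against its label, and below them in the library labelled KO 2. A whole-gene count need not fall after a short edit, so the level of Kat6a RNA does not settle the labels. Directions are given by those labels throughout. The libraries labelled KO lay further apart (SD over genes of the log2 difference 0.459) than the controls did (0.258). Fold changes over all genes followed transcript GC content, with a median log2 fold change of -0.19 in the fifth of genes with the lowest GC content and 0.22 in the fifth with the highest. Genes on chromosome 11 had a median of -0.46, and 40.5% of them were called lower. The 10 ES cell markers, among them Pou5f1, Sox2 and Nanog, all reached 1 CPM and summed to 5956 and 6659 CPM in the libraries labelled KO 1 and KO 2, against 4954 and 5011 CPM in the controls. Markers of other cells were low. The 10 fibroblast markers summed to 34.0 and 36.3 CPM in the libraries labelled KO, against 57.0 and 56.8 CPM in the controls, with Lum at 0. Pdgfra carried that difference, with 5.62 and 12.2 CPM in the libraries labelled KO, against 35.1 and 34.2 CPM in the controls. The other 9 summed to 28.4 and 24.1 CPM in the libraries labelled KO, against 21.9 and 22.6 CPM in the controls. The 5 endoderm markers summed to 22.5 and 56.9 CPM in the libraries labelled KO, against 131 and 135 CPM in the controls. The 5 neural markers summed to 122 and 104 CPM in the libraries labelled KO, against 71.8 and 81.1 CPM in the controls. Tubb3 held most of these sums, with 91.1 and 79.0 CPM in the libraries labelled KO, against 50.2 and 58.0 CPM in the controls. Of the 5 neural markers, 3 had positive log2 fold changes and 2 negative ones. The 5 mesoderm markers summed to 1.74 and 2.47 CPM in the libraries labelled KO, against 1.52 and 1.84 CPM in the controls. The part of these properties in the results below was not tested. In bulk RNA, a change in the share of cells in S phase cannot be told apart from a change in RNA per cell.

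Because the study's title ties KAT6A to CpG islands that lack methylation, and because E2F sites are the classical feature of these genes, their promoters were read. RefSeq promoters (250 bases before to 50 after the start site, GRCm38.p6) were matched for 36 of the 47 genes. The other 11 were Mcm4, Gmnn, Gins1, Gins2, Gins4, Prim2, Pole, Rfc2, Tipin, Timeless and Recql4. The E2F core was searched as TTCCCGC or TTGGCGC on both strands. At least 1 match stood in 20 of the 36 promoters (55.6%), against 12.6% of the 10875 promoters of tested genes. A CCAAT box, the letters CCAAT on either strand, stood in 22 of them (61.1%), against 38.3% of all. The cell cycle homology region, searched as TTTGAA or TTCGAA on both strands, stood in 8 (22.2%), against 13.3%. The promoters were also rich in CpG. A GC content of at least 50% with an observed over expected CpG ratio of at least 0.6 was met by 28 of 36 (77.8%). Of the 10875 promoters of tested genes 67.2% met it. The median ratio was 0.90, against 0.753 in those 10875. These shares describe sequence and are no evidence of binding.

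The promoters below are those of the called gene with the smallest adjusted p in each direction, Mcm7 (higher) and Orc5 (lower), and of the 4 most abundant other MCM2-7 genes with a matched promoter. Each is written 5′ to 3′ on the strand of its gene, with E2F core matches in capitals. The reference is of strain C57BL/6J, and the cell line is of another strain.
Mcm7, chr5:138171834-138172133, strand -: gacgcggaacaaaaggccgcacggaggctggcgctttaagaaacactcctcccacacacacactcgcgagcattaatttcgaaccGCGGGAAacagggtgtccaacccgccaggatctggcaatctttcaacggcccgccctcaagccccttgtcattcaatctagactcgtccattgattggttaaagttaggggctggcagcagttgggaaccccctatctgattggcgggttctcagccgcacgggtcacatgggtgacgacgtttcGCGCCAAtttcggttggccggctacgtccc
Mcm3, chr1:20820263-20820562, strand -: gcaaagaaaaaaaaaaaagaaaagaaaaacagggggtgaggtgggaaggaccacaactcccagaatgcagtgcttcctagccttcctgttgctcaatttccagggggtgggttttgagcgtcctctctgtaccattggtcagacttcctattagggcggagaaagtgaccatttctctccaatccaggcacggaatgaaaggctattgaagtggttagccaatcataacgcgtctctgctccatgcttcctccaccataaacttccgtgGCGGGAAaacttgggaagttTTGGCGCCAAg
Mcm5, chr8:75109259-75109558, strand +: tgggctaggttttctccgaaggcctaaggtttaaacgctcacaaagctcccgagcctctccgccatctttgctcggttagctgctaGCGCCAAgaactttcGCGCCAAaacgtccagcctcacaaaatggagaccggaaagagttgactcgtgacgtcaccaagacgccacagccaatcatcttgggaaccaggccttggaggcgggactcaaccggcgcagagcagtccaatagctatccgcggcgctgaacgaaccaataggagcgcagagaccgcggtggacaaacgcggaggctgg
Mcm6, chr1:128359656-128359955, strand -: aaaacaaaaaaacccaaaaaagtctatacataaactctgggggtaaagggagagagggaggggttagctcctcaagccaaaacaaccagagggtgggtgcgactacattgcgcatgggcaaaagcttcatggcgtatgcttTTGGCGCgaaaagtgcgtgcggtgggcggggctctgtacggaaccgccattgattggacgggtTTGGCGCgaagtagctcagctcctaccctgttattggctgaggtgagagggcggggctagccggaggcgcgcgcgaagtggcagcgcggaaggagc
Mcm2, chr6:88898731-88899030, strand -: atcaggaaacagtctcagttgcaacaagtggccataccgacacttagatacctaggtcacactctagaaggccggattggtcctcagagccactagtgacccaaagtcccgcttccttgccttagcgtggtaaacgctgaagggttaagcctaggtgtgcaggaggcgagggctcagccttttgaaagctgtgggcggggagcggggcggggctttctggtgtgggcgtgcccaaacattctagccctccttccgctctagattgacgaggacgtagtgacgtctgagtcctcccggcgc
Orc5, chr5:22550289-22550588, strand -: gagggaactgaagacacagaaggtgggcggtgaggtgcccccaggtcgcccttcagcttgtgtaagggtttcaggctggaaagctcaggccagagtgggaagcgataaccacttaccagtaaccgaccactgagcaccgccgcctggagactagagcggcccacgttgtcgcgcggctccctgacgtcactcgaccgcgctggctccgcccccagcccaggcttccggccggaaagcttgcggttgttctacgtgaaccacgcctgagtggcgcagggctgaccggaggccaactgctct
Mcm3 had 3 matches, of which a pair overlap in one palindrome, while Mcm5, Mcm6 and Mcm7 had 2 each. The Mcm3 promoter held the fewest CpG dinucleotides of the 6 shown (8, a ratio of 0.452) and Mcm5 the most (25, a ratio of 1.0). Mcm2 and Orc5 had no match in this window. All 5 of the MCM2-7 promoters shown held a CCAAT box. The median log2 fold change was 0.04 in the 20 genes with an E2F core match and 0.04 in the 16 without.

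Across the 47 genes, KO over control, log2 fold changes ran from -0.53 for Orc4 to 0.64 for Mcm7, with a median of 0.04 against 0.01 over all tested genes. At an edgeR adjusted p under 0.05, 2 genes were higher (Mcm3 and Mcm7), where 5.76% of all tested genes were called higher, and 3 were lower (Mcm8, Orc5 and Rpa1), where 8.57% of all genes were called lower. Taken in either direction, 5 of 47 (10.6%) lay near or below the 14.3% of all genes. With upper quartile scaling 2 genes were called higher and 1 lower, and with scaling factors computed without chromosome 11 genes 1 was called higher and 4 lower. With an offset for transcript GC content 3 were called higher and 2 lower. Over all genes, 928 were called higher and 1381 lower in the main test. With upper quartile scaling these all-gene counts were 1128 and 1223, and with scaling without chromosome 11 genes 726 and 1571. With the GC-content offset they were 855 and 1393. In 22 of the 47 genes (46.8%) both libraries labelled KO stood above both controls, against 31.5% of all tested genes. In 14 (29.8%) both stood below, against 32.8%. In the remaining 11 the groups overlapped, where 64.3% of all tested genes did not overlap. Without adjustment, 13 genes were higher and 10 lower at p under 0.05, where 15.8% and 18.1% of all genes were. In the authors' deposited table, from DESeq2, 4 of the 47 genes were called higher (Mcm2, Mcm3, Mcm4 and Mcm7) and 4 lower (Mcm8, Orc4, Orc5 and Rpa1). Of all 14690 genes with an adjusted p in the authors' deposited table, 6.94% were called higher and 10.1% lower, 17.0% in all.

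**Figure D1:**
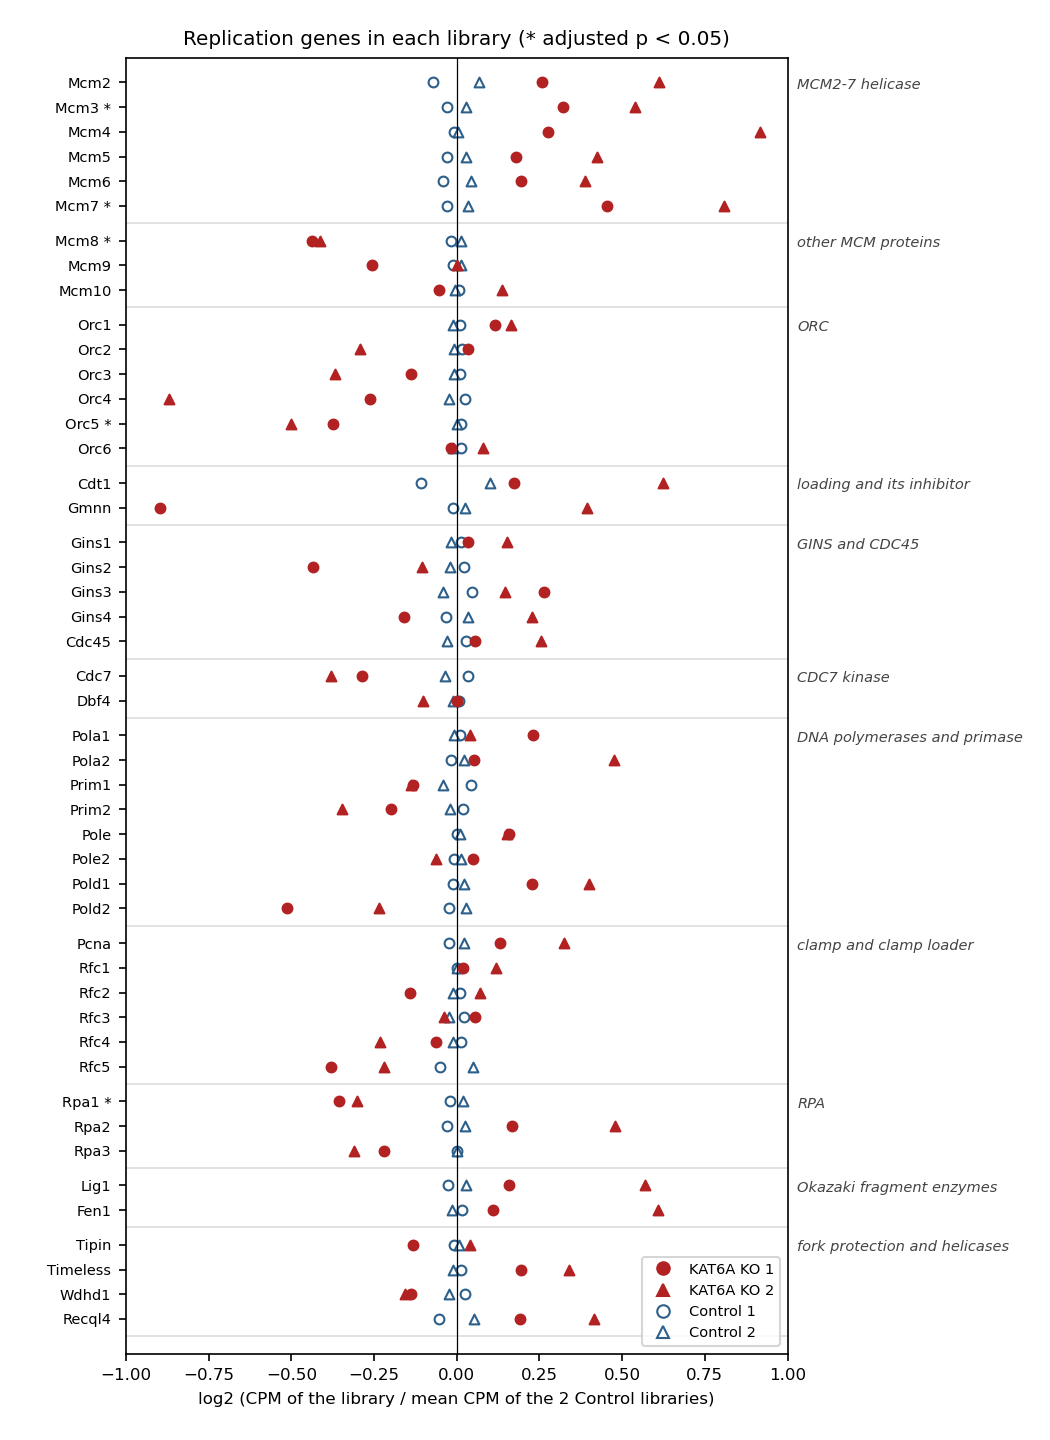
CPM of each of the 47 replication genes in each library, as log2 of its ratio to the mean of the control libraries (x axis), with genes grouped by role down the page. Filled red symbols are the libraries labelled KAT6A KO and open blue symbols the controls; all 6 MCM2-7 genes lie to the right of both controls in both, while Gmnn lies on opposite sides.

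The 6 genes of the MCM2-7 helicase were the group that stood highest. All 6 had both libraries labelled KO above both controls, where 31.5% of all tested genes did. Their median log2 fold change was 0.44, with single values from 0.29 to 0.64. The values were positive under each of the 16 alternatives tried, lowest for Mcm5 at 0.18. Since the groups did not overlap, leaving out 1 library could hardly reverse a sign. The alternatives all refit the same libraries, so they are no independent support. Only Mcm7 and Mcm3 passed the test over all genes, and the 6 together are a description. Mcm7, a subunit of the ring whose gene (chromosome 5, 138164583 to 138172422, GRCm38) also hosts a microRNA cluster in an intron, stood at 392 and 501 CPM in the libraries labelled KO 1 and KO 2, against 280.2 and 293 CPM in the controls. This was a rise of 1.56-fold (log2 fold change 0.64 ± 0.13 SE, edgeR adjusted p = 0.026), held in 15 of 16 alternatives. It was not called without control replicate 1, where its log2 fold change was 0.60. Mcm3 (chromosome 1, 20802968 to 20820312) had 681 and 791 CPM in the libraries labelled KO, against 534 and 556 CPM in the controls. It was 1.35-fold higher (log2 fold change 0.43 ± 0.10 SE, edgeR adjusted p = 0.037). The call ended without control replicate 1 or 2, where the log2 fold change was 0.40 and 0.47. It ended narrowly with scaling without chromosome 11 genes (edgeR adjusted p = 0.051). Without a control library the spread comes from the KO pair alone, which lay further apart than the controls.

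The other 4 subunits had values in the same direction and did not pass. Mcm4 had 495 and 772 CPM in the libraries labelled KO, against 407 and 410.2 CPM in the controls (log2 fold change 0.63 ± 0.19 SE, edgeR adjusted p = 0.076). Its value rested largely on 1 library, at 0.27 without the library labelled KO 2 and 0.92 without the library labelled KO 1. Mcm2 had 534 and 683 CPM in the libraries labelled KO, against 425 and 468 CPM in the controls (log2 fold change 0.45 ± 0.13 SE, edgeR adjusted p = 0.068). Mcm5 stood at 598 and 708 CPM in the libraries labelled KO, against 517 and 538 CPM in the controls, and Mcm6 at 451 and 516 CPM, against 383 and 406 CPM in the controls. Their log2 fold changes of 0.31 and 0.29 were smaller (edgeR adjusted p = 0.094 and 0.089). In each of the 6 genes the library labelled KO 2 stood above the library labelled KO 1.

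**Figure D2:**
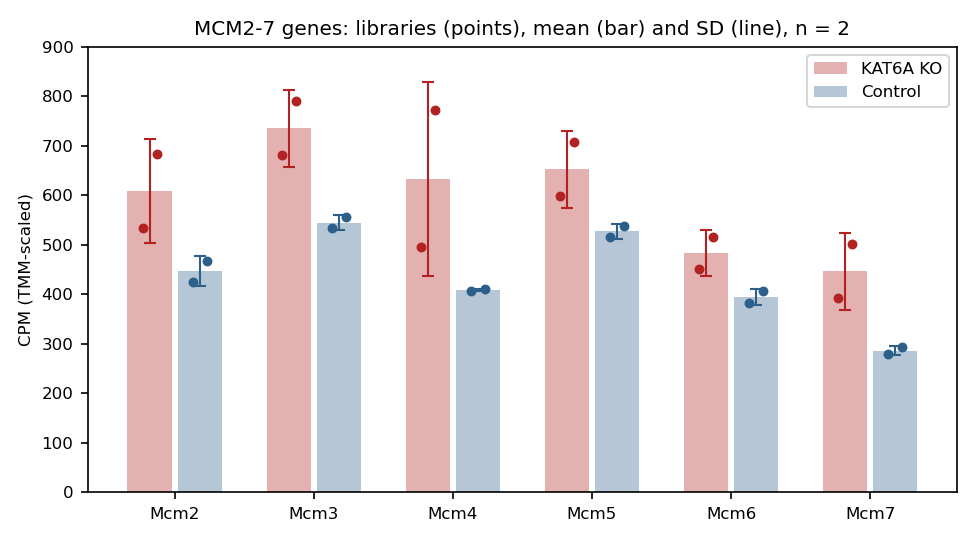
CPM of the 6 MCM2-7 genes (y axis, from 0), with points for libraries, bars for the mean and lines for the SD (n = 2), KAT6A KO in red left of Control in blue. The summed level was 3152 and 3972 CPM in the libraries labelled KO, against 2546 and 2672 CPM in the controls.

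Summed over the ring, MCM2-7 held 3562 ± 579.7 CPM in the libraries labelled KO and 2609 ± 88.8 CPM in the controls (SD, n = 2 each). Per kilobase of the principal transcript, Mcm3 was the most abundant of all 47 genes in both groups, with 243 CPM per kb in the libraries labelled KO and 179.9 in the controls. The 6 subunits lay within 1.61-fold of each other in the libraries labelled KO and 1.86-fold in the controls on this scale. The lowest of them was Mcm7 in both groups, at 151 CPM per kb in the libraries labelled KO and 96.7 in the controls. The length chosen matters to this order. Over the union of exons, Mcm2, which has long annotated variants, was lowest of the 6.

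**Figure D3:**
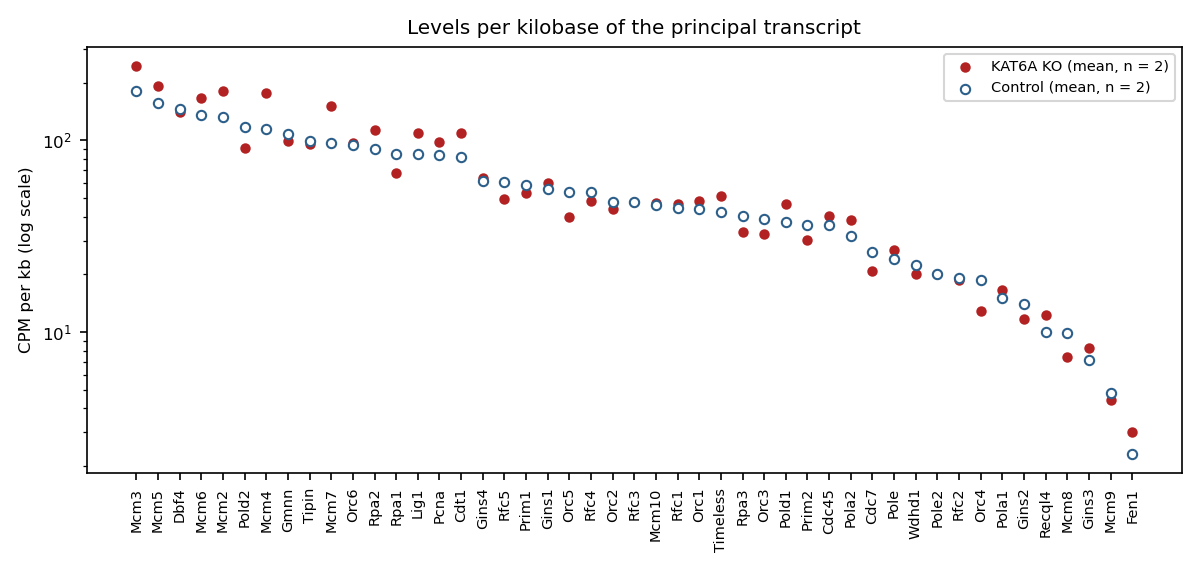
Mean CPM per kilobase of the principal transcript (y axis, log scale) of the 47 genes, ordered by the control mean, with KAT6A KO filled red and Control open blue (n = 2 each). Mcm3 and Mcm5 are highest in both groups, and Fen1 is lowest at 3.02 in the libraries labelled KO and 2.32 in the controls.

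The MCM proteins outside the ring did not follow it. Mcm8 (chromosome 2, 132816141 to 132844197), whose protein pairs with MCM9 in a helicase of homologous recombination, had 23.2 and 23.6 CPM in the libraries labelled KO, against 31.0 and 31.7 CPM in the controls. It fell to 0.748 of the control level (log2 fold change -0.42 ± 0.10 SE, edgeR adjusted p = 0.043). The call of Mcm8 was lost with an offset for transcript GC content (edgeR adjusted p = 0.074) and with upper quartile scaling (0.051). It was also lost without control replicate 1 or 2, where the log2 fold change was -0.44 and -0.40. Mcm9 had a log2 fold change of -0.12 and overlapping groups, and 19.2% of its exonic length is shared with Asf1a on the opposite strand. Mcm10, a factor that helps to activate the helicase, was the most abundant of the 3, at 215.0 and 245 CPM in the libraries labelled KO, against 224 and 222 CPM in the controls (log2 fold change 0.04 ± 0.09 SE, edgeR adjusted p = 0.77).

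The ORC subunits went different ways, and 4 of 6 log2 fold changes were below 0. Orc5 (chromosome 5, 22486485 to 22550429) had 87.2 and 79.8 CPM in the libraries labelled KO, against 114 and 113 CPM in the controls. It fell to 0.737 of the control level (log2 fold change -0.44 ± 0.09 SE, edgeR adjusted p = 0.026). The call of Orc5 was lost without control replicate 1 or 2, where the log2 fold change was -0.44 in both. Under the offset for GC content its log2 fold change was -0.23 and not called (edgeR adjusted p = 0.076), and the mean GC content of Orc5 transcripts is low, at 42.8%. Orc4 had the lowest value of all 47 genes, with 63.3 and 41.6 CPM in the libraries labelled KO, against 77.3 and 74.7 CPM in the controls (log2 fold change -0.53 ± 0.19 SE, edgeR adjusted p = 0.10). Its transcripts have a mean GC content of 38.2%, and with the GC-content offset the value was -0.17. Orc3 also lay below both controls in both libraries (-0.25), and reached 0.01 with that offset.

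Orc2 overlapped between the groups, with a log2 fold change of -0.12, and shares 29.8% of its exonic length with Nif3l1 on the opposite strand. Orc1, an ATPase subunit, lay above both controls in both libraries (0.14, edgeR adjusted p = 0.25). Orc6, the most abundant subunit per length at 96.9 CPM per kb in the libraries labelled KO and 94.9 in the controls, stood at 120.5 and 129 CPM in the libraries labelled KO, against 123 and 121 CPM in the controls (log2 fold change 0.03 ± 0.08 SE, edgeR adjusted p = 0.83). The summed ORC level was 669.6 and 606 CPM in the libraries labelled KO, against 709 and 697 CPM in the controls. The ratio of summed MCM2-7 to summed ORC counts was thus 4.71 and 6.55 in the libraries labelled KO, against 3.59 and 3.84 in the controls. This ratio sets the highest group of genes over one with mostly negative values, so it adds no separate result. It was taken without the GC-content offset.

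The inhibitor gene Gmnn separated the libraries labelled KO from each other, while the loading gene Cdt1 lay above both controls in both. Gmnn (chromosome 13, 24751845 to 24761923) had 65.0 CPM in the library labelled KO 1 and 159 CPM in the library labelled KO 2, against 120.1 and 123 CPM in the controls. It stood at 0.536 and 1.31 times the control mean in the libraries labelled KO 1 and KO 2. The pooled log2 fold change of -0.12 ± 0.36 SE (edgeR adjusted p = 0.84) averages over this split, and it carried the largest standard error of the 47 genes. Without the library labelled KO 2 it was -0.90 (edgeR adjusted p = 4.5e-40), and without the library labelled KO 1 it was 0.39 (edgeR adjusted p = 9.5e-11), each with the spread taken from the controls alone. Cdt1 had 202 and 276 CPM in the libraries labelled KO, against 166 and 192 CPM in the controls (log2 fold change 0.42 ± 0.16 SE, edgeR adjusted p = 0.12). With the GC-content offset Cdt1 was at 0.21 (edgeR adjusted p = 0.28). The ratio of Cdt1 to Gmnn counts was 3.10 in the library labelled KO 1 and 1.73 in the library labelled KO 2, against 1.38 and 1.56 in the controls.

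Genes that turn the loaded ring into a helicase were not called. Among GINS subunits and Cdc45, log2 fold changes ran from -0.26 for Gins2 to 0.20 for Gins3. Gins4, the most abundant per length, had 74.0 and 96.9 CPM in the libraries labelled KO, against 80.9 and 84.6 CPM in the controls (log2 fold change 0.05 ± 0.14 SE, edgeR adjusted p = 0.84). Gins1 (0.09) and Cdc45 (0.16) lay above both controls in both libraries. Gins2 shares 67.3% of its exonic length with Gse1 on the opposite strand. Whether the authors counted by strand was not stated, so counts of such overlapping genes are uncertain. The kinase gene Cdc7 had 66.8 and 62.5 CPM in the libraries labelled KO, against 83.3 and 79.5 CPM in the controls (log2 fold change -0.33 ± 0.09 SE, edgeR adjusted p = 0.053). Cdc7 was called in 6 of the 16 alternatives, but not with the GC-content offset, where it stood at -0.19 (edgeR adjusted p = 0.11). The gene of its activator, Dbf4, among the most abundant of the set, stood at 351 and 327 CPM in the libraries labelled KO, against 353 and 348 CPM in the controls (log2 fold change -0.05 ± 0.08 SE, edgeR adjusted p = 0.71).

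None of the 8 polymerase and primase genes was called at the adjusted threshold by the edgeR test. The authors' deposited table called none either. Without adjustment, 3 had an edgeR p under 0.05 (Pold1 higher, Prim2 and Pold2 lower). Of all tested genes, 15.8% were higher and 18.1% lower at that unadjusted threshold. Subunits of one enzyme differed in direction. Pold1, the catalytic subunit of polymerase delta, had 151 and 170.2 CPM in the libraries labelled KO, against 128 and 131 CPM in the controls (log2 fold change 0.31 ± 0.09 SE, edgeR adjusted p = 0.069). Pold2, its accessory subunit on chromosome 11, had 136 and 165 CPM in the libraries labelled KO, against 191 and 198 CPM in the controls (log2 fold change -0.37 ± 0.11 SE, edgeR adjusted p = 0.072). The chromosome 11 median was -0.46, and the part of that shift in the value of Pold2 was not tested. Under the GC-content offset Pold1 stood at 0.07 (edgeR adjusted p = 0.52), while Pold2 was called lower, at -0.57 (edgeR adjusted p = 0.012). Both primase genes were below both controls in both libraries, with log2 fold changes of -0.14 for Prim1 and -0.27 for Prim2, while the polymerase alpha genes Pola1 (0.14) and Pola2 (0.28) and the catalytic polymerase epsilon gene Pole (0.15) were above. Pola1 was called under that offset (0.35, edgeR adjusted p = 0.026). Pole2 had a log2 fold change of -0.01.

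The sliding clamp gene Pcna, often used as a mark of S phase, had 139 and 159 CPM in the libraries labelled KO, against 125 and 129 CPM in the controls (log2 fold change 0.23 ± 0.10 SE, edgeR adjusted p = 0.15). The genome holds annotated Pcna pseudogenes, so reads may be split between copies. The clamp loader genes Rfc1 to Rfc5 ran from -0.29 for Rfc5 to 0.07 for Rfc1 and none was called, with Rfc2 at -0.03, Rfc3 at 0.01 and Rfc4 at -0.15.

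The 3 genes of replication protein A, which coats single-stranded DNA, went different ways although their proteins form one trimer. Rpa1, the large subunit, lies on chromosome 11 at 75298166 to 75348324 (GRCm38) and had 335 and 348 CPM in the libraries labelled KO, against 423 and 435 CPM in the controls. It fell to 0.797 of the control level (log2 fold change -0.33 ± 0.08 SE, edgeR adjusted p = 0.043). The call of Rpa1 was lost with upper quartile scaling (edgeR adjusted p = 0.052). It was also lost without control replicate 1 or 2, where the log2 fold change was -0.35 and -0.31. The fall of Rpa1 was smaller than the chromosome 11 median of -0.46, and the part of that chromosome-wide shift in it was not tested. Rpa2 had 183 and 227 CPM in the libraries labelled KO, against 159.6 and 166 CPM in the controls (log2 fold change 0.33 ± 0.12 SE, edgeR adjusted p = 0.10). Rpa3, the small subunit, was below both controls in both libraries, at -0.27, and at 0.16 with the GC-content offset.

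Of the enzymes that finish Okazaki fragments, the ligase gene Lig1 had 299 and 398 CPM in the libraries labelled KO, against 263 and 273 CPM in the controls (log2 fold change 0.38 ± 0.14 SE, edgeR adjusted p = 0.11). Fen1, the flap nuclease gene, had only 181 and 231 counts in the libraries labelled KO and 198 and 202 in the controls, the fewest of the 47 genes. Of its exonic length 78.8% is shared with the antisense gene Gm10143, which had 52 and 50 counts in the libraries labelled KO and 46 and 72 in the controls, so the deposited count of Fen1 is uncertain. Among the fork genes, Tipin was the most abundant per length, at 166 and 187 CPM in the libraries labelled KO, against 181 and 183 CPM in the controls (log2 fold change -0.05 ± 0.09 SE, edgeR adjusted p = 0.74). Timeless, whose protein binds TIPIN, lay above both controls in both libraries (0.27, edgeR adjusted p = 0.087), as did the helicase gene Recql4 (0.31, edgeR adjusted p = 0.12), and Wdhd1, which links helicase and polymerase alpha, lay below (-0.15).

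Fold changes within the set followed transcript GC content as they did over all genes. Across the 47 genes, which share libraries and are not independent, Pearson's r was 0.422 and Spearman's rho 0.466. The 19 genes with a GC content of at least 50% had a median log2 fold change of 0.31, against 0.12 over all such genes, and the 28 genes below it had -0.05, against -0.12. The MCM2-7 genes spanned this range, since Mcm4 transcripts have a mean GC content of 42.0% and those of Mcm2 58.0%. With the GC-content offset Mcm4 stood at 0.90, Mcm7 at 0.65, Mcm3 at 0.41, Mcm6 at 0.39, and Mcm2 and Mcm5 at 0.27 and 0.25. The median of the 47 genes was 0.13 with this offset, against 0.02 over all genes.

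**Figure D4:**
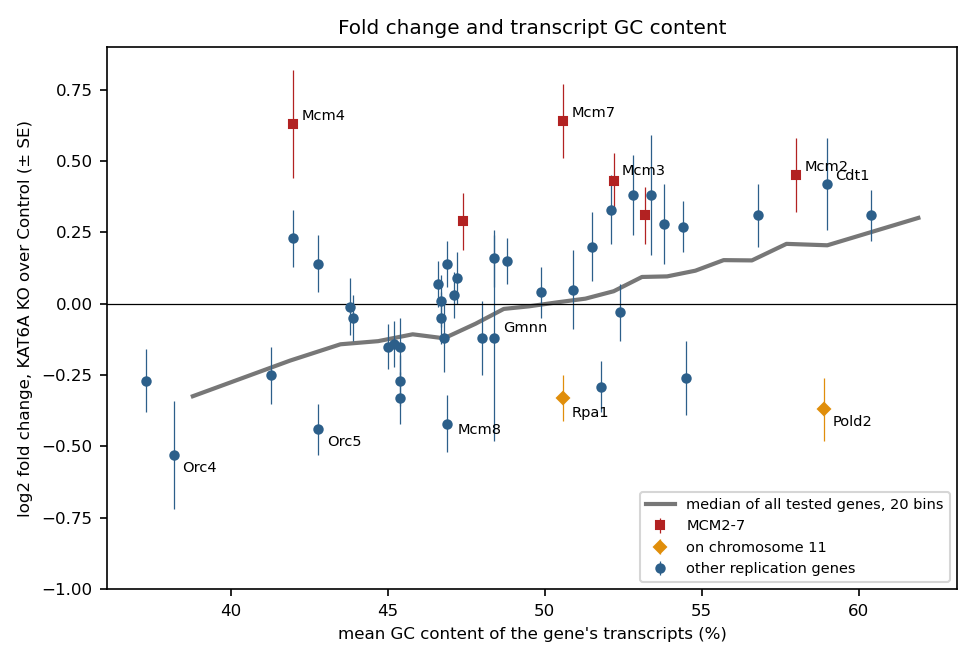
Log2 fold change, KAT6A KO over Control, with its SE (y axis) against the mean GC content of each gene's transcripts (x axis) for the 47 genes, with the grey line giving the median of all tested genes in 20 bins of GC content. All 6 MCM2-7 genes (red squares) lie above the line, and Rpa1 and Pold2 on chromosome 11 (orange diamonds) lie below it.

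Related gene lists were read from the same fit. Of 27 other replication factors, 1 was called higher and 3 lower. Ticrr, whose protein recruits CDC45 to the loaded ring, stood at 532 and 412 CPM in the libraries labelled KO, against 301 and 303 CPM in the controls (log2 fold change 0.65 ± 0.13 SE, edgeR adjusted p = 0.027). Cdc6, the partner of CDT1 in loading, fell to 76.8 and 98.3 CPM in the libraries labelled KO, against 132 and 134 CPM in the controls (log2 fold change -0.60 ± 0.13 SE, edgeR adjusted p = 0.03). Top2a, a topoisomerase gene (-0.55), and Atad5, which unloads PCNA (-0.57), also fell. The 3 lower calls were lost under the GC-content offset, at -0.52 for Cdc6 (edgeR adjusted p = 0.052), -0.35 for Top2a (0.08) and -0.22 for Atad5 (0.13). Atad5 was also not called without control replicate 1 (log2 fold change -0.57), nor Top2a without control replicate 1 or 2 (-0.55 in both). With a term for replicate number added to that offset, Cdc6 (-0.54, edgeR adjusted p = 0.015) and Top2a (-0.36, 0.042) were called. Atad5 was not (-0.22, 0.11). Ticrr was called in all 16 alternatives, Cdc6 in 15, and Top2a and Atad5 in 13 each. Of 12 genes of nucleotide supply only Shmt1 was called (-0.54), of 8 fork checkpoint genes only Hus1 (-0.57), and of 21 mitosis genes Cenpa was higher (0.50) and Birc5 lower (-0.46). None of these 4 was called without control replicate 1 or without control replicate 2, while each kept its direction. Shmt1 was also not called with upper quartile scaling or a filter of 1 CPM in 2 libraries (edgeR adjusted p = 0.052 in both), nor Cenpa with scaling without chromosome 11 genes (0.051).

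None of 9 chromatin assembly genes and none of 13 E2F and pocket protein genes was called by the edgeR test. At an unadjusted edgeR p under 0.05 there were 4 and 3, where 15.8% of all tested genes were higher and 18.1% lower. E2f1 had a log2 fold change of 0.41 (edgeR adjusted p = 0.098), and E2f3 went the other way at -0.67 (edgeR adjusted p = 0.19). Of the 13 E2F and pocket protein genes, 8 had a positive log2 fold change and 5 a negative one. All 6 genes called lower in these lists (Cdc6, Atad5, Top2a, Shmt1, Hus1 and Birc5) lie on chromosome 11. Over the 6 lists, 2 of 90 genes were higher and 6 lower, a share of 8.89% against 14.3% of all genes. The median log2 fold change was 0.11 for the other replication factors, 0.19 for the mitosis genes and 0.15 for chromatin assembly. It was 0.11 for the E2F and pocket proteins, 0.01 for nucleotide supply and -0.14 for the fork checkpoint. Of the 47 replication genes the median was 0.04, and of their highest group, MCM2-7, 0.44. Those differences between lists were not tested.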

How the data were processed

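Messenger RNA was sequenced from 2 KAT6A KO and 2 control libraries, grouped by title. Per the labels' protocols, the kit (TruSeq Stranded mRNA) keeps strand. The authors deposited 1 table of raw counts a library, by gene symbol, made with featureCounts per the submitters' processing notes. Which aligner, build, annotation and strand setting they used is not given here. The authors also deposited a DESeq2 comparison that has no header. The authors made from their counts a signal (mean normalized count), then a log2 fold change, scores (standard error and Wald statistic) and p-values, in a column order read from the deposited values. The fold change and adjusted p-values of that deposited table are used only where it is named.

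The deposited counts were fitted with edgeR 4.0.16 (R 4.3.3), using filterByExpr, TMM scaling and the robust quasi-likelihood test on all genes, adjusted by Benjamini-Hochberg and called under 0.05. The model held the group only. SE is the fold change over the square root of F. Common biological variation was 11.2%. A chi-square check of replicates gave a mean per gene of 34.4 for the KO pair and 3.7 for the control pair, above sampling noise, so each library was counted separately. With 2 libraries a group, an exact permutation test cannot go below p = 0.333 and was not used. Positions, lengths and GC content came from GENCODE M21 (GRCm38), with GC content known for 98.6% of tested genes. Levels per kb use the longest transcript of the best APPRIS class. Alternatives changed the scaling, filter, test (limma-voom 3.58.1, DESeq2 1.42.0, likelihood ratio), design, GC-content offset (lowess span 0.3) or libraries. The test was checked on simulated counts with the same spread in both groups and no GC or chromosome 11 trend. The check thus does not cover those features of the data. Promoters start within 1000 bases of the GENCODE start, a bound set after seeing which genes matched.

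Members and lists were chosen with earlier results of these data known. By rule, full values are given for called members and the most abundant member per length of each role, and other lists name called genes, at most 4 each. Other members given in full were chosen after their values were seen, as were E2f1 and E2f3. Python 3.11.15, pandas 2.3.3, scipy 1.17.1 and matplotlib 3.10.9 made tables and plots.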

Additional observations from a re-analysis of the deposited data

How the results depend on the processing

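The direction of all 5 called replication genes held under each of the 16 alternatives, while their calls did not. In these 5 genes the groups did not overlap, so leaving out 1 library could hardly reverse a direction. The count called higher and lower was 4 and 4 with DESeq2, 5 and 6 with the likelihood ratio test, 3 and 6 with no low-count filter, 3 and 2 with the GC-content offset, 2 and 1 with upper quartile scaling, and 1 and 4 with scaling without chromosome 11 genes. The titles share replicate numbers that nothing says mark a pairing (correlation of same-numbered deviations 0.0945). With the replicate block the counts were 10 higher and 7 lower, or 6 and 3 with the GC-content offset as well. Leaving out 1 library gave 0 to 22 higher and 0 to 14 lower. Without a KO library the spread comes from the control pair alone. Without a control library it comes from the KO pair alone, which lay further apart. In each case the lone library is taken to vary as that pair does.

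Over all genes 928 were higher and 1381 lower, against 1666 and 2175 with the likelihood ratio test, 1613 and 2147 with the replicate block, and 254 to 4020 and 648 to 4400 with 1 library left out. The all-gene counts were 1114 higher and 1517 lower with DESeq2, and 1223 and 1970 with no low-count filter. They were 1128 and 1223 with upper quartile scaling, and 726 and 1571 with scaling without chromosome 11 genes. With the GC-content offset they were 855 and 1393, or 1149 and 1676 with the block as well. In the 6 other lists 2 were higher and 6 lower. Those called higher were 1 with scaling without chromosome 11 genes, 6 with DESeq2, the likelihood ratio test or the GC-content offset, 15 with the replicate block and 13 with the block and the offset. Those called lower were 10 with the block and 3 with the offset. With 1 library left out they were 1 to 41 and 1 to 21. The median log2 fold change of the replication genes was 0.13 with the GC-content offset, with or without the block, and 0.03 to 0.12 with 1 library left out.

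Of 752 values of single genes under alternatives, 32 had the opposite sign, from 14 genes. None of these genes was called by the main edgeR test on all 4 libraries, though some of the reversed values were called where 1 library was left out. With the GC-content offset, Dbf4 was 0.13, Orc3 0.01, Prim1 0.01, Pole2 0.17, Rpa3 0.16, Tipin 0.07 and Wdhd1 0.00, and with the replicate block as well 0.13, 0.01, 0.01, 0.17, 0.15, 0.06 and 0.00. With scaling without chromosome 11 genes, Orc6 was -0.01 and Rfc3 -0.03, and with no filter Rfc3 was -0.01. Pole2 was 0.00 with RLE scaling or DESeq2, 0.03 with upper quartile and 0.01 with no composition scaling. With 1 library left out, Mcm10 ran from -0.06 to 0.14, Orc2 from -0.30 to 0.03, Orc6 from -0.02 to 0.08, Gmnn from -0.90 to 0.39, Gins4 from -0.17 to 0.23, Pole2 from -0.07 to 0.05, Rfc2 from -0.15 to 0.07, Rfc3 from -0.04 to 0.05 and Tipin from -0.14 to 0.04. The cause of these changes was not tested. The members had at least 181 counts in each library; what depth and n = 2 each contributed to the few calls was not tested.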
